A study of Papio anubis with 40 samples.

Results

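Start variants of the Gly-CCC 5′ tRNA fragment were examined: 315 distinct sequences of 25 to 36 nt out of 58587 fragments counted in baboon serum. They were chosen by their fragment ID, a code that spells the sequence in blocks of 5 bases. A start variant has exactly 1 of its first 2 blocks changed from the most abundant Gly-CCC start, and each was compared with the unchanged, or main, sequence of equal length. Every one of them differs from that main sequence by a single base, at a position from 1 to 10 counted from the 5′ end. The mismatches allowed in alignment are not given, so variants with more changes may have been left out before counting.

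Serum (0.5 mL per draw) came from 8 olive baboons (Papio anubis, numbered PA8001 to PA8915) at month 0 and at months 3, 6, 9 and 15, with 1 library per animal and month, or 40 in all. Month 0 precedes the inoculation of menstrual tissue into the peritoneum, a procedure that models endometriosis, the growth of uterine lining outside the uterus. The labels call every library, month 0 included, one from a baboon with endometriosis and list no treatment, and animals without inoculation were not analysed here. Age and disease stage are not in the labels, so time, age and inoculation cannot be told apart. Adapters were ligated to both ends of the RNA, and each library holds between 198840 counts (PA8001, month 0) and 6245450 counts (PA8914, month 9), of which 14822 to 69630 belonged to start variants.

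Transfer RNAs bring amino acids to the ribosome, and Gly-CCC carries glycine to codons that its anticodon, CCC, reads. Cleavage in or before the anticodon loop, known in human and mouse cells for the nuclease angiogenin, leaves 5′ fragments, and those of glycine tRNAs are among the abundant small RNAs of mammalian blood. Transfer RNAs also carry many chemically modified bases. In human cells THUMPD3 with TRMT112 methylates a guanosine at position 6 of many tRNAs. This is background: base modifications were not measured here. Serum holds no cells of its own, so a level cannot be assigned to a tissue, and a larger share of the library cannot be told apart from a larger amount per volume of serum.

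The sequences below show the variants on which the results turn, at 27 nt, under the main sequence, followed by the main sequence of 36 nt. A capital letter marks the base that differs from the main sequence. A substitution is written as the main sequence's base, its position from the 5′ end and the variant's base, so that G1A has A at position 1.
main, 27 nt (tRF-27-Q1Q89P9L842): gcgccgctggtgtagtggtatcatgca
G1A (tRF-27-E1Q89P9L842): Acgccgctggtgtagtggtatcatgca
G1C (tRF-27-31Q89P9L842): Ccgccgctggtgtagtggtatcatgca
C4T (tRF-27-QMQ89P9L842): gcgTcgctggtgtagtggtatcatgca
G6A (tRF-27-Q1E89P9L842): gcgccActggtgtagtggtatcatgca
G6C (tRF-27-Q1389P9L842): gcgccCctggtgtagtggtatcatgca
T8C (tRF-27-Q1P89P9L842): gcgccgcCggtgtagtggtatcatgca
main, 36 nt (tRF-36-Q1Q89P9L8422YRB): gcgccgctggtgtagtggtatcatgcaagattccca
The bases ccc near the end of the 36 nt sequence are the anticodon, the one in the name Gly-CCC. Only fragments of 35 and 36 nt hold all of it, and these lengths have 22 and 7 start variants.

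Start variants held 1714448 counts, or 1.31% of the 130892201 counts in the table, while the 12 main sequences held 47240431 counts, or 36.1%. All 30 possible substitutions of the first 10 bases were found. There were 30 variants at each length from 26 to 32 nt, 26 at 25 nt and 25, 25, 22 and 7 at 33, 34, 35 and 36 nt. The set was very uneven: the median variant had 110 counts over all libraries, 23 had a single count, 121 had fewer than 40, and the most abundant had 127740. Start variants made up between 3.05% (35 nt) and 3.86% (25 nt) of start variant plus main counts at a given length, pooled over libraries. No fragment differed from the main sequence of equal length by exactly 2 substitutions (0 found), and 609 others carried 1 substitution beyond position 10. The mismatches allowed in alignment are not given, so the count of 0 cannot tell whether such fragments were absent from the RNA.

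The 12 most abundant start variants were G1A and G6A at 27, 29, 30 and 32 nt, T8C at 27, 29 and 32 nt, and G6C at 27 nt. Their means over the 40 libraries ran from 1030 CPM (G1A, 27 nt) to 314 CPM (T8C, 32 nt), where CPM is counts-per-million of a library size adjusted by the trimmed mean of M values (TMM). By position, 30.1% of start variant counts had their substitution at position 6, 26.9% at position 1 and 11.4% at position 8. Each of the other 7 positions had between 3.45% (position 5) and 6.47% (position 3).

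In each library, the share of a substitution is its count over all lengths as a percentage of itself plus the main counts of those lengths. G1A had a mean share of 1.03% ± 1.12 (SD, 40 libraries), G6A 0.761% ± 0.105, T8C 0.439% ± 0.213 and G6C 0.305% ± 0.0321. The mean ± SD of G1A overlaps that of each other substitution named here, as does that of T8C with G6C, while G6A lay above both T8C and G6C by more than the SDs. Mean shares of the next substitutions were 0.227% (G1T), 0.193% (C2T), 0.187% (G3A), 0.161% (G10A), 0.161% (C4T) and 0.156% (G9A).

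Transitions, which swap a purine for a purine or a pyrimidine for a pyrimidine, are 10 of the 30 possible start substitutions and held 77.0% of start variant counts. Their mean shares ran from 0.118% to 1.03% with a median of 0.174%, against 0.0013% to 0.305% and a median of 0.018% for the 20 transversions. A similar division held beyond the start, and the ranges overlapped in both regions. At positions 11 to 25, transitions held 77.8% of single-substitution counts. Mean shares there ran from 0.112% to 0.607% for transitions (median 0.331%). For transversions they ran from 0.00061% to 0.578% (A14C), with a median of 0.007%. G1A and G6A lay above the range of the G transitions at positions 11 to 25, which was 0.112% to 0.221%, whereas G3A, G9A and G10A, at 0.156% to 0.187%, lay inside it. T8C lay inside the range of T transitions at positions 11 to 25, which was 0.283% to 0.607%.

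**Figure D1:**
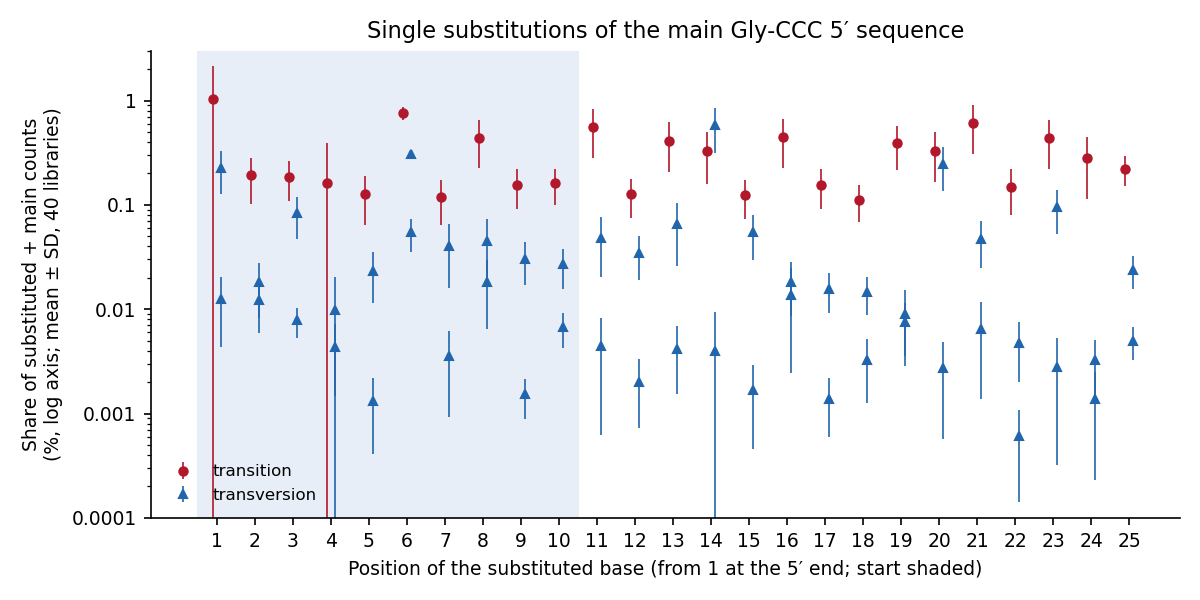
Share of each single substitution of the main Gly-CCC 5′ sequence (percent of substituted plus main counts, log axis) by position from the 5′ end, as mean and SD of 40 libraries. Red circles are transitions, blue triangles transversions, and the start is shaded. G1A (1.03%) and G6A (0.761%) are the highest points of the start, and G6C (0.305%) is its highest transversion.

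Both abundant substitutions at position 6, G6A and G6C, had narrow ranges over the libraries. G6A ranged from 0.632% (PA8914, month 15) to 1.01% (PA8001, month 6), a 1.60-fold range, with a coefficient of variation (CV) of 13.8%. G6C ranged from 0.227% (PA8872, month 6) to 0.403% (PA8835, month 0), a 1.78-fold range, with a CV of 10.5%. Both extremes of G6C stood apart from the other animals of their month by Dixon's test at the 95% level, against 0.276 to 0.333% at month 0 and 0.275 to 0.301% at month 6. The rarer G6T varied more, from 0.0290% to 0.108%, a 3.73-fold range with a CV of 35.1%.

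By month, G6A averaged 0.748% ± 0.115, 0.760% ± 0.102, 0.786% ± 0.110, 0.780% ± 0.114 and 0.732% ± 0.103 at months 0, 3, 6, 9 and 15 (SD, n = 8 each). G6C averaged 0.321% ± 0.0383, 0.321% ± 0.0403, 0.285% ± 0.0251, 0.294% ± 0.0138 and 0.306% ± 0.0261. The months overlap for both. By animal, G6A means ran from 0.663% ± 0.0198 (PA8914, SD, 5 libraries) to 0.837% ± 0.142 (PA8001), and G6C means from 0.272% ± 0.0262 (PA8872) to 0.322% ± 0.0396 (PA8873). By length, the pooled G6A share was 0.784% at 27 nt and between 0.544% (31 nt) and 0.723% (28 nt) at the other lengths from 28 to 32 nt, and G6C lay between 0.280% (29 nt) and 0.332% (32 nt).

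T8C varied more. It ranged from 0.181% to 0.946% with a CV of 48.6%, and it was high in the libraries where substitutions at positions 11 to 25 were high. Those substitutions together held 5.63% ± 2.49 of their counts plus main counts, from 2.60% to 10.9%. They were highest in PA8835 at month 9 (10.9%), PA8001 at month 6 (10.8%), PA8873 at month 9 (10.7%) and PA8001 at month 0 (9.99%). In these 4 libraries T8C stood at 0.946%, 0.858%, 0.858% and 0.770%, and G6A at 0.958%, 1.01%, 0.929% and 0.927%, all above its mean of 0.761%. G6C stood at 0.310%, 0.294%, 0.298% and 0.289%, near its mean. All 40 libraries share the main count as denominator of both shares, and PA8001 at month 0 has the lowest total of all. What makes substitutions frequent in some libraries was not tested.

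**Figure D2:**
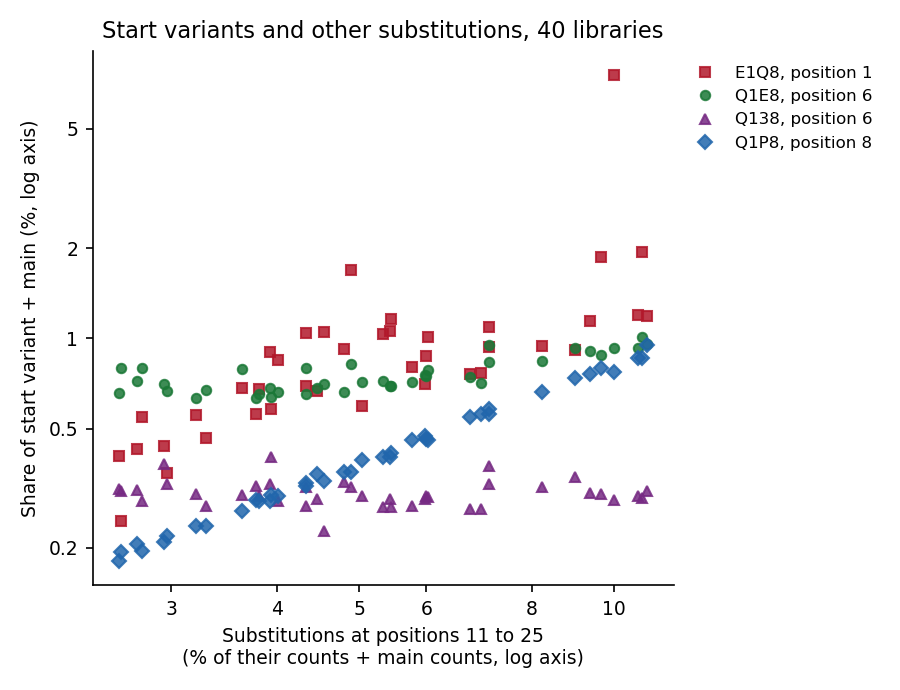
Shares of G1A (squares, E1Q8), G6A (circles, Q1E8), G6C (triangles, Q138) and T8C (diamonds, Q1P8) against the summed share of substitutions at positions 11 to 25, 1 point per library, both in percent on log axes. T8C climbs along the axis, G6C stays between 0.227% and 0.403%, and the G1A point at 7.55% is PA8001 at month 0.

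G1A had a CV of 109% over the 40 libraries, where T8C had 48.6%. Without PA8001 at month 0 the CV of G1A was 43.7% over 39 libraries. Its lowest, median and highest shares were 0.404%, 0.910% and 7.55% at month 0, 0.355%, 0.893% and 1.68% at month 3, 0.596%, 1.02% and 1.94% at month 6, 0.245%, 0.776% and 1.19% at month 9, and 0.427%, 0.700% and 1.09% at month 15. A single library, PA8001 at month 0, stood far above the others, and the same animal also held the lowest value, 0.245% at month 9. In that month 0 library 9093 of 120488 G1A plus main counts were G1A (7.55%, 95% Wilson interval 7.40 to 7.70%, counting error only), and each length from 27 to 32 nt gave between 7.38% and 7.86%. Without this library, G1A averaged 0.864% ± 0.378 over 39 libraries, with a highest share of 1.94%.

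In that library G6A was 0.927%, G6C 0.289% and T8C 0.770%, each within the range of the other libraries. It was the highest library for 9 of the 30 start substitutions, among them G1C (0.0511%, with 0.0286% in the next), T8A (0.0574%, with 0.0436% in the next) and C5G (0.00539%, with 0.00258% in the next). With 111395 main counts in that library, the C5G share rests on few counts. The share of all start variants was 4.09% ± 1.74 over the 40 libraries, from 2.29% (PA8001, month 9) to 11.7% (PA8001, month 0), and 3.90% ± 1.24 without that month 0 library. By month it averaged 4.65% ± 3.02, 3.96% ± 1.19, 4.34% ± 1.49, 3.84% ± 1.54 and 3.68% ± 1.06 at months 0, 3, 6, 9 and 15 (SD, n = 8 each). These monthly values differ by less than their spread.

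C4T showed a second single-library excess. At month 3 PA8003 had 10924 C4T counts among 709585 C4T plus main counts (1.54%, 95% Wilson interval 1.51 to 1.57%), and its other months had 0.0567% to 0.0942%. No other library exceeded 0.285%. The excess depended on length, with 2.22% at 27 nt, 1.79% at 28 nt, 1.45% at 29 nt, 0.980% at 30 nt, 0.803% at 31 nt and 1.81% at 32 nt. At the same base, C4G was also highest in this library, at 0.0142%, with 0.0117% in the next library and 0.000875 to 0.00261% in the other months of PA8003. C4A was 0.0102% in that library, against 0.00266 to 0.00716% in the other months of PA8003. Its mean over the other 39 libraries was 0.0097% ± 0.0106. That mean includes a single-library excess of C4A itself, 0.0691% in PA8835 at month 9, with 0.0183% in the next library. Higher shares in PA8003 at month 3 were not confined to position 4. T8C was 0.581% there, against 0.195 to 0.323% in the animal's other months, and C2T 0.249%, against 0.0769 to 0.146%. G1A, at 0.939%, lay within its other months (0.427 to 1.04%). Substitutions at positions 11 to 25 held 7.11% there, the highest value of PA8003.

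**Figure D3:**
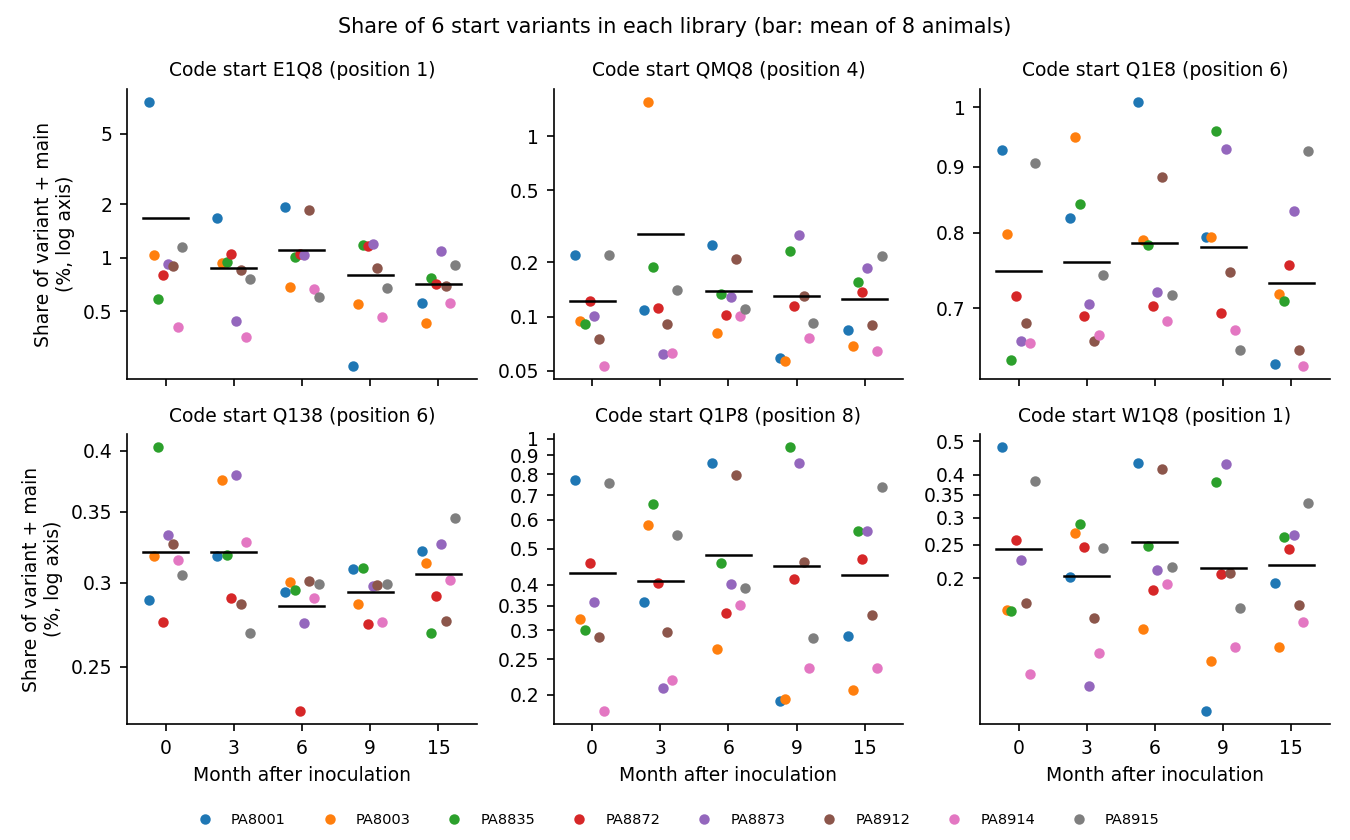
Shares of G1A (E1Q8), C4T (QMQ8), G6A (Q1E8), G6C (Q138), T8C (Q1P8) and G1T (W1Q8) in each library by month, in percent of variant plus main counts on log axes that differ between panels. Points are animals and bars are means of 8 animals. PA8001 stands at 7.55% for G1A at month 0 and PA8003 at 1.54% for C4T at month 3, while G6A and G6C keep narrow ranges.

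The main 5′ fragments of 3 other families allow the same positions to be read in different starts. Their main sequences are shown because they differ in the bases compared, and capitals mark the first 10 bases.
Val-AAC/CAC (tRF-31-79MP9P9NH57SD): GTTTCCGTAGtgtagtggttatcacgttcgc
Gly-GCC (tRF-30-P4R8YP9LON4V): GCATGGGTGGttcagtggtagaattctcgc
Lys-TTT (tRF-31-PS5P4PW3FJHPB): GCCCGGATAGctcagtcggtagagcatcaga
Family names follow the anticodon of longer fragments, and the comparison is a description across sequences of the same libraries, without a test.

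A G at position 6 is shared by Gly-CCC, Gly-GCC and Lys-TTT. G6A had a narrow spread in all of them: 0.761% in Gly-CCC (CV 13.8%), against 0.685% in Gly-GCC (CV 12.5%) and 2.71% in Lys-TTT (CV 5.96%). G6C was more uneven between families, at 0.305% in Gly-CCC and 1.08% in Lys-TTT (CV 4.54%) but 0.0233% in Gly-GCC (CV 44.7%). In Val-AAC/CAC, where position 6 is C, C6T was 0.0685% (CV 34.0%). The G at its position 7 gave G7A at 0.376% (CV 24.0%) and G7C at 0.136% (CV 31.8%). A narrow spread was not confined to position 6: G10A of Lys-TTT was 1.59% (CV 11.6%).

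The G1A excess of PA8001 at month 0 was present in each of the other families that begin with G. In that library G1A was 9.15% in Gly-GCC, with 2.51% in the next highest library, 7.80% in Lys-TTT with 2.29% next, and 0.803% in Val-AAC/CAC with 0.113% next. The main counts behind these values were 1251, 9639 and 11605. The C4T excess of PA8003 at month 3 was not seen in Lys-TTT, where C4T in that library was 0.424%, below the highest value of another library, 0.568%.

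**Figure D4:**
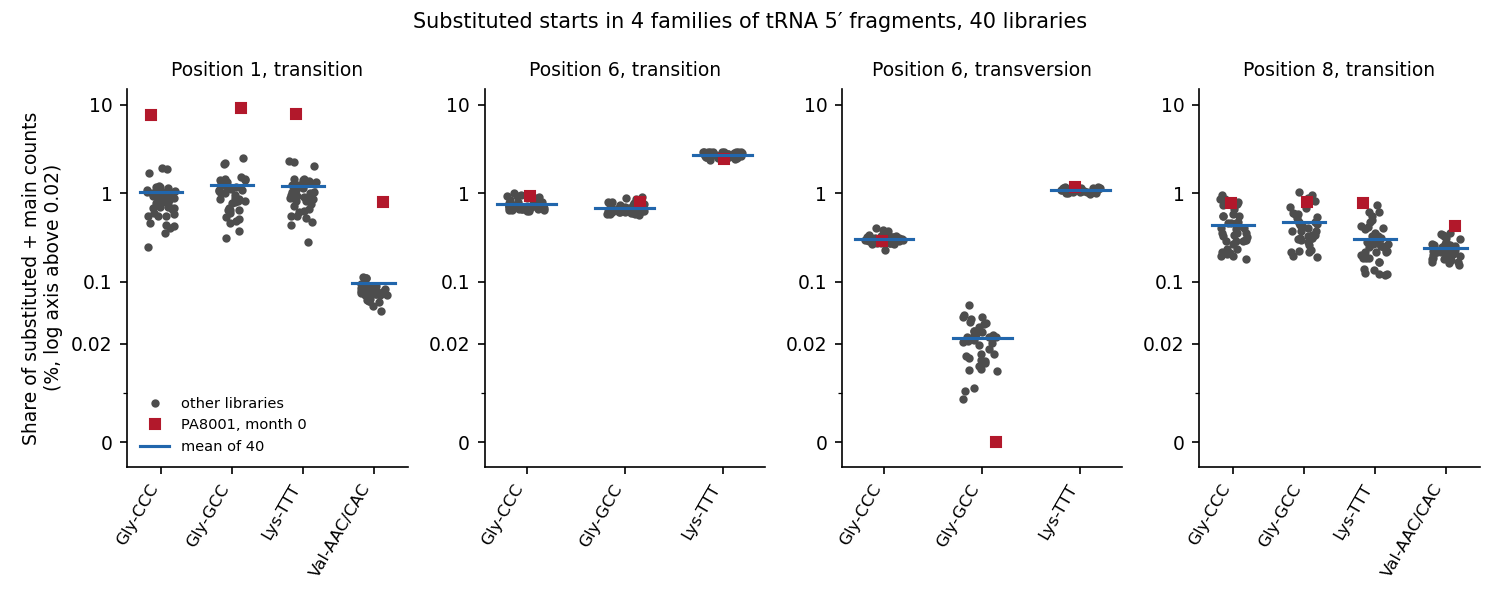
Shares of the transition at position 1, the transition and the G-to-C transversion at position 6 and the transition at position 8 in 4 families of 5′ fragments, 1 point per library, in percent of substituted plus main counts (log axis above 0.02). The red square is PA8001 at month 0 and the blue line the mean of 40 libraries. That library is the highest for G1A in all 4 families shown (0.803% to 9.15%), and Lys-TTT has the highest position 6 values.

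The draws before and after inoculation were compared next, with edgeR's quasi-likelihood test over the 2447 fragments that passed a filter on low counts, with the animal as a block. Of the 315 start variants 142 were tested: 28 each at 27, 29, 30 and 32 nt, 16 at 28 nt, 13 at 31 nt and 1 at 26 nt. At months 3, 6 and 9 no start variant rose or fell against month 0 (0 of 142 at each, and 0% of all fragments), with 4, 17 and 8 at an unadjusted p under 0.05. DESeq2 and limma-voom called 0 as well, with 9, 27 and 10 and with 1, 15 and 11 at an unadjusted p under 0.05. The smallest adjusted p at months 3, 6 and 9 were 0.999, 0.303 and 0.582.

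At month 6, long variants were among those with the smallest p. G6C of 32 nt had 128 ± 55.2 CPM at month 6 and 240 ± 69.0 CPM at month 0, a log2 change of -0.94 with an adjusted p of 0.307. C5A of 29 nt had 28.8 ± 12.5 CPM at month 9 and 15.8 ± 5.43 CPM at month 0, a log2 change of 0.88 ± 0.297 (SE), and was higher in 5 of 8 animals with an adjusted p of 0.582. Neither passed. At month 3, C4T of 27 nt had 286 ± 421 CPM, against 119 ± 43.9 CPM at month 0, with 1323 CPM in the PA8003 library described above and a median of 144 CPM.

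At month 15 against month 0, 2 of 142 start variants fell and 0 rose, both of 27 nt with the substitution at position 1 (2.37% of all fragments passed, 2.21% rising and 0.163% falling). G1A of 27 nt had a lowest, median and highest level of 289, 546 and 950 CPM at month 15, against 543, 1139 and 2340 CPM at month 0. Its mean was 563 ± 233 CPM at month 15 and 1247 ± 536 CPM at month 0, a log2 change of -1.18 ± 0.293 (SE), lower in 7 of 8 animals (edgeR adjusted p 0.0355). G1C of 27 nt had 3.37, 7.31 and 12.1 CPM at month 15, against 10.4, 14.8 and 22.5 CPM at month 0. Its log2 change was -1.09 ± 0.246, lower in 8 of 8 animals (edgeR adjusted p 0.0312). The months overlap for both variants. Few counts lie behind the G1C levels, and a count of 0 allows up to 7.82 CPM in PA8001 at month 0.

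Both calls ended with library totals as scaling (adjusted p 0.0842 for G1A and 0.0992 for G1C) and when the month 15 draws of PA8001 and PA8003 were left out (0.279 and 0.186), and without any 1 of 5 animals, named in the closing section. Without the month 0 library of PA8001, G1A did not pass (adjusted p 0.0588) and G1C did (0.0327). The main sequence of 27 nt had 77161 ± 30111 CPM at month 15 and 132352 ± 78077 CPM at month 0, a log2 change of -0.66 ± 0.372 that did not pass (adjusted p 0.298).

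Against the mean of months 3, 6 and 9, length separated the start variants that rose at month 15 from those that fell. Of 142 tested, 34 rose (23.9%) and 22 fell (15.5%), close to the shares of all fragments (39.7% passed, 23.7% rising and 16% falling). Those that rose were 9 of 13 at 31 nt and 25 of 28 at 32 nt. Those that fell were 22 of 28 at 27 nt, and none (0) of 28, 29 or 30 nt passed. Median log2 changes were -0.75, -0.28, -0.24, 0.00, 0.80 and 1.45 at 27, 28, 29, 30, 31 and 32 nt, against -0.08 over all fragments. The 1 variant tested at 26 nt changed by 0.35 on the log2 scale and did not pass, so the order by length holds from 27 nt on. Variants changed in the first block of 5 bases included 15 that rose and 12 that fell, and those changed in the second block 19 that rose and 10 that fell. This comparison uses the same month 15 libraries as the one against month 0.

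G6C of 32 nt had a lowest, median and highest level of 99.2, 150 and 458 CPM at month 3, 69.7, 117 and 235 CPM at month 6, 95.7, 166 and 230 CPM at month 9 and 165, 299 and 3730 CPM at month 15. PA8003 holds the 3730 CPM and PA8001 the next highest level, 846 CPM. The log2 change was 1.71 ± 0.271, higher in 8 of 8 animals (edgeR adjusted p 0.000283). G6A of 32 nt changed by 1.61 ± 0.262 on the log2 scale, higher in 7 of 8 animals (edgeR adjusted p 0.000292). C7G (1.81), C7A (1.77), and G3C, G10C and G10T (1.56 each on the log2 scale) of 32 nt also rose.

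Among the 27 nt variants, C4A fell by 1.03 ± 0.319 on the log2 scale (edgeR adjusted p 0.0115) and G1A by 1.00 ± 0.247, to 563 ± 233 CPM at month 15 against 1114 ± 241 CPM over months 3, 6 and 9, lower in 8 of 8 animals (edgeR adjusted p 0.00274). C4G fell by 0.96, G1C by 0.94, C4T by 0.91, G6C by 0.90, and T8A and G6A by 0.86 each. For the position 4 variants, months 3, 6 and 9 hold the libraries with the highest shares over all lengths. These were PA8835 at month 9 for C4A (0.0691%) and PA8003 at month 3 for C4G (0.0142%) and C4T (1.54%). The part of these libraries in the falls of C4A, C4G and C4T was not tested.

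The main sequences moved in the same directions. At 27 nt the main sequence had 77161 ± 30111 CPM at month 15 and 132126 ± 21219 CPM over months 3, 6 and 9, a log2 change of -0.80 ± 0.315 (edgeR adjusted p 0.0413). At 32 nt it had 219162 ± 340430 CPM at month 15 and 51461 ± 17135 CPM over months 3, 6 and 9, a log2 change of 1.58 ± 0.268 (edgeR adjusted p 0.000339). PA8003 at month 15 reached 1051140 CPM for this sequence, which exceeds the full scale because CPM refers to the TMM-adjusted library size.

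The counts depended on scaling, on the filter and on the libraries of PA8003 and PA8001 at month 15. With library totals 29 rose and 4 fell. Without a filter 24 of the 142 rose, all of 32 nt with 0 of 13 at 31 nt, and 3 fell; over all 315 start variants, which this fit tests, 34 rose and 3 fell. Without those 2 libraries 21 rose and 2 fell. Median log2 changes at 27 nt stayed below 0 (-0.61 with library totals, -0.54 without the 2 libraries) and at 32 nt above 0 (1.37 and 1.12), while the median at 30 nt changed sign between settings.

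**Figure D5:**
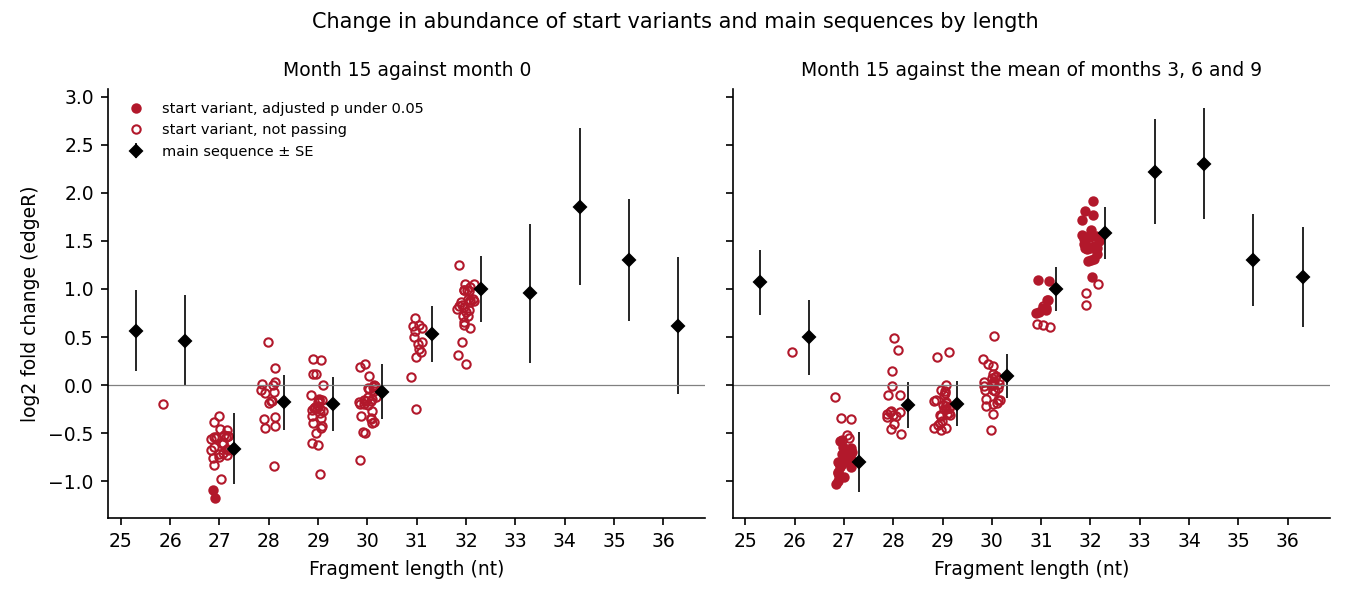
Log2 fold change of each tested start variant (red circles, filled where the adjusted p was under 0.05) and of the main sequences (black diamonds with SE) by length in nt, for month 15 against month 0 (left) and against the mean of months 3, 6 and 9 (right). Filled points lie at 27 nt below 0 and at 31 and 32 nt above 0 on the right, and the main sequences lie among the variants of their length from 27 to 32 nt.

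Whether a start variant moved apart from its main sequence was tested with the main count of equal length as offset, over the 400 single-substitution fragments with at least 10 counts in at least 8 libraries. No ratio of the 142 start variants passed at month 15 against month 0 (0%) or at months 3, 6 or 9 (0% each), nor at month 15 against the mean of months 3, 6 and 9 (0.25% of all ratios passed). At an unadjusted p under 0.05 there were 0, 1 and 6 at months 3, 6 and 9, where the smallest adjusted p was 0.752 (month 9), 1 at month 15 against month 0 and 3 against the mean of months 3, 6 and 9, and limma on log2 ratios called 0 as well. The median SE was 0.344 on the log2 scale at month 15, so shifts of that size were not detectable. Larger ones could be missed as well: G1A changes down to -0.74 at month 15 against month 0 did not pass.

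The ratios at positions 6 and 1, which hold the most start variant counts, are described here. G6A of 32 nt had a share of 0.737% ± 0.120 at month 15 and 0.714% ± 0.104 at month 0, a log2 ratio change of 0.05 ± 0.288 (SE), and G6C of 32 nt 0.341% ± 0.0445 and 0.324% ± 0.0488, a change of 0.07 ± 0.265. At position 1, G1A ratios were below 0 at all 7 lengths tested, with a median of -0.72. G1A of 29 nt had 0.713% ± 0.218 at month 15 and 1.66% ± 2.38 at month 0, but was lower in only 5 of 8 animals. Without the month 0 library of PA8001 the median was -0.23, and no G1A ratio reached an unadjusted p under 0.05 (0 of 7).

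Ratios were also compared between the 8 animals, in 1 joint test per fragment. No start variant passed (0 of 142, and 0.25% of all ratios), with 35 at an unadjusted p under 0.05. The smallest adjusted p, 0.197, was that of G1A at 28 nt. PA8914 had the lowest mean G1A share, 0.489% ± 0.125 (SD, 5 libraries), and PA8001 the highest, 2.39% ± 2.97, of which the month 0 library is the largest part. With the month 15 draws of PA8001 and PA8003 left out, 5 ratios passed, those of G1A at 28, 29, 30, 31 and 32 nt, and without PA8914 3 had an unadjusted p under 0.05.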

How the data were processed

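The authors deposited whole-number counts per fragment sequence and library, with no scaling per the values, and a text table of sequences. Per the labels' protocols, total RNA was extracted with a MagMAX kit, RNA integrity numbers were at least 7, molecular identifiers were added at cDNA synthesis and sequencing was on a NovaSeq X. The submitters' processing notes name R 4.5.0, edgeR and limma without a role. Not given in the sources used here are the aligner, the tRNA reference, the mismatches allowed and any collapsing by molecular identifier, so intervals cover counting error only, and whether a substitution arose in the RNA or in library preparation, sequencing or alignment was not tested.

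Of 60201 lines, 1614 without an ID, each with an unread base (0.0805% of counts), were left out. All columns were used (0 unused). The start variants, gene lists and comparison families were chosen with earlier results of these data known. edgeR 4.0.16 (R 4.3.3; TMM, robust quasi-likelihood fit, filterByExpr with a minimum count of 10) was fitted to all fragments over 40 libraries with animal and month as terms. Ratios used the log of the main count plus 0.5 as offset. p-values were two-sided with Benjamini-Hochberg adjustment and a threshold of 0.05. Both fits were checked on simulated counts, where the ratio fit missed some of the smaller changes. The block is the animal, from the labels: library deviations had a mean correlation of 0.191 within animals and -0.0254 between them, and 54 of 80 within-animal pairs exceeded 0.1. Alternatives used DESeq2 1.42.0, limma 3.58.1, other scaling and filters, and fewer libraries. Variants named are the 12 most abundant, up to 8 per direction and comparison that passed and moved alike in 7 or 8 animals, the 3 with the smallest p where fewer than 3 passed, and the most abundant form of each substitution with at least 1% of start variant counts. Some variants this rule names are not reported here. C4A, and libraries singled out, were chosen after their values were seen. A count of 0 allows up to 3 counts, or 0.568 to 7.82 CPM depending on the library. No 2 libraries held identical values (0 pairs). Python 3.11.15 with pandas 2.3.3 made the tables.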

Additional observations from a re-analysis of the deposited data

Results flagged for a closer look

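Within each month, the highest or lowest of the 8 animals was set against the others by Dixon's test at the 95% level. This covered the share of all start variants, the shares of some substitutions, C4A not among them, and the 12 most abundant start variants. The test picked out 18 of 140 groups, where chance picks about 1 in 20 of independent groups with a normal spread. These groups share libraries and counts, so that rate does not apply to them directly. PA8001 at month 0 stood apart in the share of all start variants, 11.7% against 2.33 to 5.61% in the other animals, and in the share of G1A, 7.55% against 0.404 to 1.15%. The same library stood apart in the level of G1A at 29 nt (tRF-29-E1Q89P9L84FS, 5801 CPM against 503 to 1554), at 30 nt (tRF-30-E1Q89P9L8422, 5611 CPM against 360 to 1230) and at 32 nt (tRF-32-E1Q89P9L8422Q, 10129 CPM against 153 to 981), and of T8C at 32 nt (tRF-32-Q1P89P9L8422Q, 962 CPM against 61.0 to 479). This library also has the lowest total count, 198840, and its part in these values was not tested.

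PA8003 at month 3 stood apart in the share of C4T, 1.54% against 0.0621 to 0.188%, in G6A at 30 nt (tRF-30-Q1E89P9L8422, 1012 CPM against 286 to 621) and in T8C at 32 nt (tRF-32-Q1P89P9L8422Q, 656 CPM against 53.2 to 333). PA8003 at month 15 stood apart in G1A at 32 nt (tRF-32-E1Q89P9L8422Q, 4519 CPM against 415 to 1252), in G6A at 29 nt (tRF-29-Q1E89P9L84FS, 1197 CPM against 299.9 to 658), 30 nt (tRF-30-Q1E89P9L8422, 1306 CPM against 215 to 605) and 32 nt (tRF-32-Q1E89P9L8422Q, 8072 CPM against 389 to 1368), and in T8C at 32 nt (tRF-32-Q1P89P9L8422Q, 2180.5 CPM against 226 to 617). The main sequence of 32 nt was also highest in that library, at 1051140 CPM.

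PA8001 at month 6 stood apart at 32 nt in G1A (tRF-32-E1Q89P9L8422Q, 1007 CPM against 193 to 468) and T8C (tRF-32-Q1P89P9L8422Q, 440 CPM against 83.5 to 245). The share of G6C was high in PA8835 at month 0, 0.403% against 0.276 to 0.333%, and low in PA8872 at month 6, 0.227% against 0.275 to 0.301%.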

How the results depend on the processing

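The 2 start variants called at month 15 against month 0 became 9 with DESeq2, 0 with library totals, 0 with no filter, 0 when the month 15 draws of PA8001 and PA8003 were left out, and 1 without the month 0 library of PA8001, an alternative chosen after seeing the data. Leaving out 1 animal gave 0 to 5, with 0 without PA8001, PA8003, PA8873, PA8912 or PA8914. Limma-voom gave 2, and with no replicate block, that is without the pairing by animal, 3 were called. The 56 called against the mean of months 3, 6 and 9 became 33 with library totals, 37 with no filter (over all 315 start variants, and 27 among the 142 tested otherwise) and 23 without those 2 month 15 libraries; DESeq2 gave 61, limma-voom 60, no replicate block 48 and leaving out 1 animal 44 to 59. No ratio at month 15 was called in any alternative run (0), nor between animals except 5 without those 2 libraries. The counts of 0 at months 3, 6 and 9 stayed 0 in every alternative run. The mean share of all start variants, 4.09%, lay between 3.90% and 4.20% in its alternatives. Of 418 repeats of 28 single results, 366 kept their direction and side of the threshold, 49 no longer passed, 3 newly passed and 0 changed sign; the block changed 1 of these calls. The cause of these differences was not tested. Depth limits the rarer variants: 142 of 315 were tested.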
